A study of Mus musculus with 6 samples.

Results

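The genes described here are 10 markers of mural cells, the cells that wrap blood vessels. They were chosen by symbol from a single table of 25239 genes, and all 10 have a measured value. Of these, 7 are used as pericyte genes (Pdgfrb, Rgs5, Abcc9, Vtn, Ndufa4l2, Higd1b and Anpep) and 3 as smooth muscle genes (Acta2, Tagln and Myh11). The table compares 2 groups of 3 libraries of polyadenylated RNA from mouse cortex at E15.5. The first group was labelled MPPH (Thr280Ala): embryos on a C57BL/6J background were electroporated in utero at E13.5 with Breasi-CRISPR, a genome editing method, to introduce the Thr280Ala variant of Ccnd2. The second group was labelled GFP only, on the same background. All 6 libraries carry the genotype label wild type. RNA was taken from electroporated tissue as a bulk, without sorting named in the labels, and the share of edited cells was not measured. The labels list no edited control without the variant. Separate embryos are not named for the libraries of a group either, and all p-values here therefore reflect the spread among these libraries, which may be technical.

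Pericytes sit on capillaries beneath the basement membrane, and smooth muscle cells form rings around arteries and arterioles. Endothelial cells secrete platelet-derived growth factor B, and its receptor on mural cells, encoded by Pdgfrb, is needed for pericytes to spread along new vessels in the developing brain. In the forebrain many mural cells derive from the neural crest, as do fibroblasts of the meninges that cover the cortex. Contractile genes such as Acta2 mark the smooth muscle end of the mural lineage and are low in most capillary pericytes.

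Which group stands on top of the deposited fold change is not stated. Values above 0 are therefore assigned to the positive side and values below 0 to the negative side, and neither side is matched to a label. The base mean is a gene's count divided by each library's size factor, a measure of relative depth, averaged over the 6 libraries. Base means summed over genes give the average normalised depth, 23691630 reads. Size factors ran from 0.904 to 1.11 on the positive side, against 0.85 to 1.11 on the negative side. From the base mean, fold change and standard error, the whole reads of each library were recovered for all 10 genes. Within a side, library 1 has the largest size factor and library 3 the smallest, and values per library are reads divided by that factor. Of the lists used here, meningeal fibroblast markers differed most between libraries. Their 12 genes summed to 7388, 10144 and 585 normalised reads in libraries 1, 2 and 3 of the positive side, against 545, 430.0 and 575 on the negative side. Library 3 of the positive side therefore lay close to the negative side in these genes, and the other 2 libraries of its side stood apart. Cortical markers were abundant, with Emx1 at a base mean of 2159 and Tbr1 at 14239.7.

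None of the 10 mural genes was called at an adjusted p under 0.05 in the authors' deposited table, which calls 25 of 18446 genes tested, or 0.136%, and 0.0867% on the positive side. At an unadjusted p under 0.05 the deposited table holds 4 of the 10 (Vtn, Anpep, Acta2 and Tagln), all on the positive side, where 3.96% of all genes pass in either direction and 2.77% on the positive side. The sides overlapped in recovered reads for all 10 genes. Among 6250 resolved genes with a base mean from 3 to 300, the sides did not overlap for 11.2%, and for 6.8% with the positive side higher. The median log2 fold change was 0.0047 over the pericyte genes and 1.15 over the smooth muscle genes, against -0.0044 over all genes tested. Of the 10 genes 7 had a positive value, where 48.8% of all genes did.

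**Figure D1:**
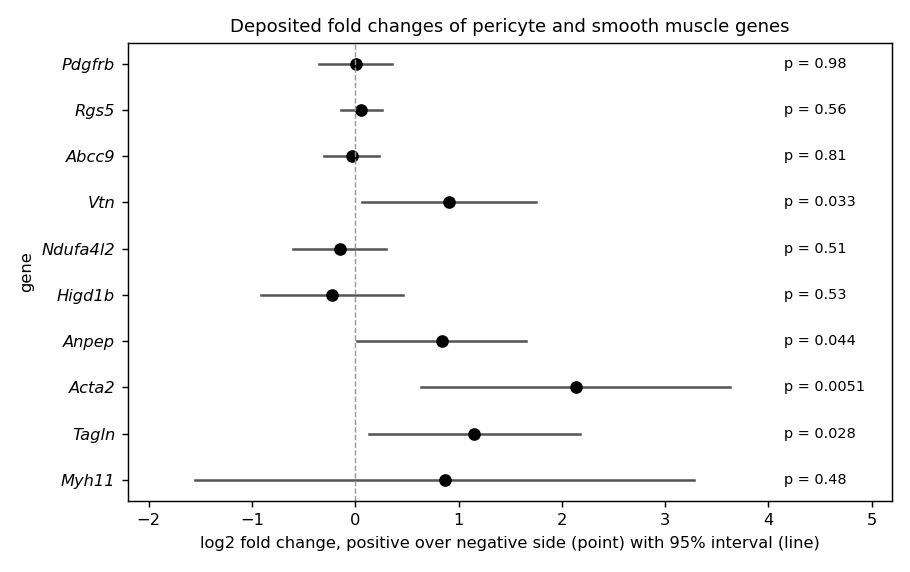
Log2 fold change (positive over negative side) of each gene in the authors' deposited table, as a point with its 95% interval as a line and the unadjusted p at the right. Intervals of Vtn, Anpep, Acta2 and Tagln lie above 0, and those of the other 6 genes include 0.

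Of the pericyte genes, Pdgfrb, Rgs5 and Abcc9 differed little between the sides, while Vtn and Anpep, described below, had larger fold changes. Pdgfrb, on chromosome 18, encodes the receptor for platelet-derived growth factor B. It had 617, 627 and 515 normalised reads in the positive libraries, against 618, 435 and 704 in the negative libraries. The lowest and the highest value both lay on the negative side, and the sides overlapped. Its log2 fold change in the authors' deposited table was 0.0047 ± 0.18 (standard error), with a 95% interval of -0.35 to 0.36 and an adjusted p of 1.00 by DESeq2. Rgs5, a regulator of G-protein signalling on chromosome 1 and a standard pericyte marker, was the most abundant of the 10 genes. It had 1889.8, 1759 and 1670.1 normalised reads on the positive side, against 1734, 1519 and 1856 on the negative side. Rgs5 also had the narrowest interval, a log2 fold change of 0.06 with bounds of -0.14 and 0.26 in the authors' deposited table. Abcc9 encodes the sulfonylurea receptor subunit of the ATP-sensitive potassium channel of mural cells. It stood at 577, 590.1 and 543 normalised reads on the positive side, against 612, 491 and 647 on the negative side. The deposited log2 fold change of Abcc9 was -0.03, with an interval of -0.30 to 0.23.

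A pair of small mitochondrial proteins belongs to the same pericyte signature. Ndufa4l2 encodes a relative of a cytochrome c oxidase subunit and is induced by hypoxia in cell lines. It had 145, 120.4 and 92.9 normalised reads on the positive side, against 133, 134 and 132 on the negative side. The negative libraries agreed within an SD of 1.29 (n = 3), while the positive libraries lay on both sides of them. Higd1b, a member of the hypoxia-inducible domain family, had 30.7, 44 and 38.7 normalised reads on the positive side, against 44.9, 41.3 and 45.9 on the negative side. In the authors' deposited table the log2 fold change was -0.15 ± 0.23 for Ndufa4l2 and -0.22 ± 0.35 for Higd1b. Higd1b was the only member whose lowest positive value did not fall in library 3. Summed over Pdgfrb, Rgs5, Abcc9, Ndufa4l2 and Higd1b, a sum chosen after the values were seen, normalised reads averaged 3087 ± 205 on the positive side, against 3049 ± 390.4 on the negative side (SD, n = 3 each). The ratio of the sides was 1.01, smaller than the spread between libraries.

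Vtn and Anpep, which are expressed by pericytes but also known from other cells, had higher values in part of the positive side. Vtn, on chromosome 11, encodes vitronectin, a secreted adhesion protein that binds integrins and that brain pericytes produce. It had 1006, 1319 and 495 normalised reads in positive libraries 1, 2 and 3, against 518, 398 and 585 in the negative libraries. Positive libraries 1 and 2 lay above all 4 others, and positive library 3 lay within the negative range. Vtn averaged 940.2 ± 416 on the positive side, against 501 ± 94.5 on the negative side (SD, n = 3 each), a ratio of 1.88 with an exact permutation p of 0.3 (two-sided; 3 against 3 cannot go below 0.10). Its log2 fold change in the authors' deposited table was 0.91 ± 0.43, with an unadjusted p of 0.033 and an adjusted p of 1.00. Anpep, on chromosome 7, encodes aminopeptidase N (CD13), a surface peptidase of pericytes that meningeal fibroblasts express too. It had 106, 167 and 49.8 normalised reads on the positive side, against 51.2, 53.8 and 76.5 on the negative side. The order of the positive libraries was that of Vtn, and library 3 was the lowest of all 6. Anpep had a deposited log2 fold change of 0.84 ± 0.42 (unadjusted p = 0.044, adjusted p = 1.00 by DESeq2). In bulk tissue, fewer cells of a type and less RNA per cell cannot be told apart.

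**Figure D2:**
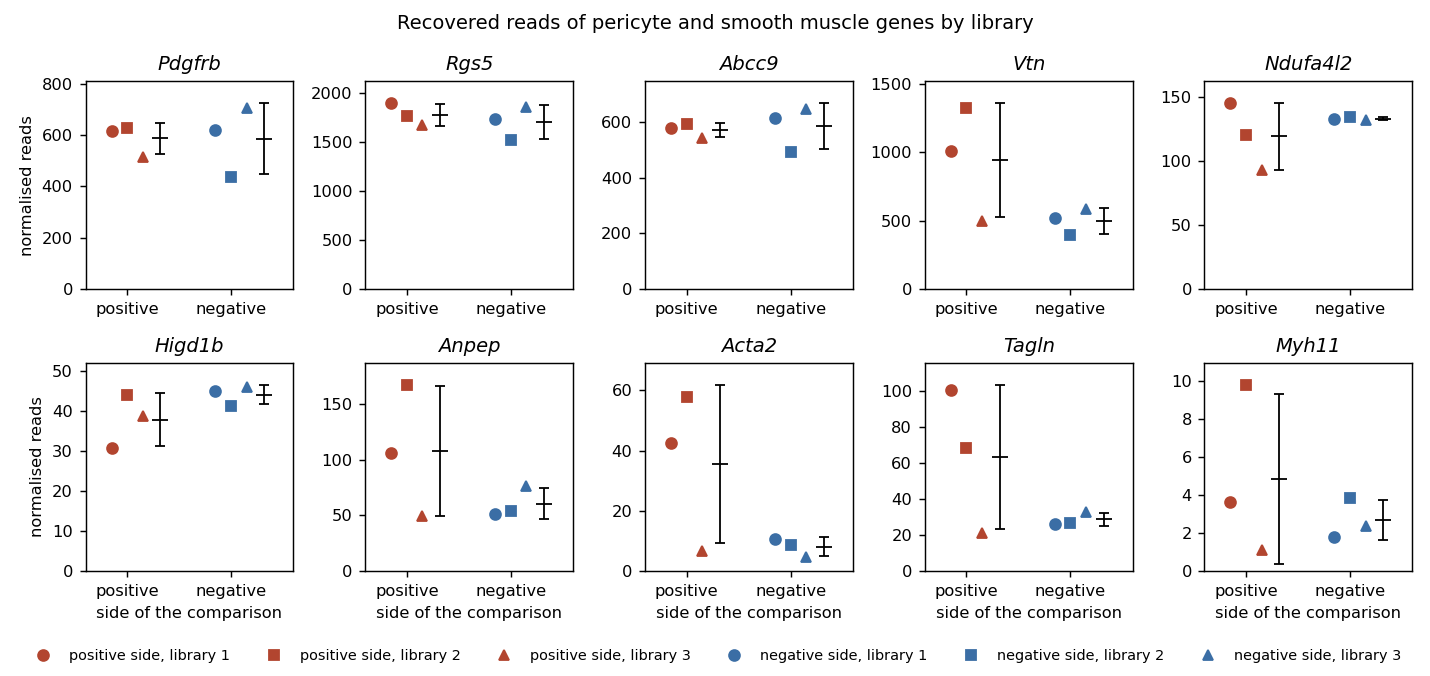
Normalised reads of each gene in the 6 libraries (vertical axes start at 0 and differ between panels), with positive libraries at the left and negative libraries at the right, and the mean ± SD in black. Vtn, Anpep, Acta2 and Tagln show positive libraries 1 and 2 above the 4 others, while Pdgfrb, Rgs5 and Abcc9 do not.

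Acta2 and Tagln, both contractile genes, had the largest log2 fold changes of the 10, at low read counts. Acta2, on chromosome 19 from 34241090 to 34255590 (minus strand, GENCODE M21, mm10), encodes smooth muscle alpha-actin. It had 47, 59 and 6 reads in positive libraries 1, 2 and 3, against 12, 9 and 4 reads in the negative libraries. Positive libraries 1 and 2 were 5.28 and 7.18 times the negative mean after normalisation, and positive library 3 was 0.825 times that mean. Acta2 averaged 35.6 ± 26.2 normalised reads on the positive side, against 8.04 ± 3.08 on the negative side (SD, n = 3 each), with an exact permutation p of 0.3. Acta2 stood at 2.14 ± 0.76 on the log2 scale of fold change in the authors' deposited table, with the smallest unadjusted p of the 10 genes (0.0051) and an adjusted p of 0.45. Tagln, on chromosome 9, encodes transgelin (SM22-alpha), an actin-binding protein of smooth muscle. It had 111, 70 and 19 reads on the positive side, against 29, 28 and 28 reads on the negative side. Here the highest value lay in positive library 1, not library 2, and library 3 once more had the fewest. The deposited log2 fold change of Tagln was 1.15 ± 0.52 (unadjusted p = 0.028, adjusted p = 1.00 by DESeq2). Myh11, on chromosome 16, encodes the myosin heavy chain of mature smooth muscle. It was close to undetected, with 4, 10 and 1 reads on the positive side against 2, 4 and 2 reads on the negative side. Its deposited log2 fold change of 0.87 had an interval of -1.55 to 3.28, so a difference was not detectable at this depth.

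The start-site sequences of Acta2 and Rgs5 are shown since these genes stand for the widest and the narrowest interval among members above 20 in base mean. Contractile genes are known targets of serum response factor, which binds a 10-base element called the CArG box: a pair of C, a core of 6 bases that are A or T, and a pair of G. RefSeq promoter windows (GRCm38.p6) were matched for 5 of the 10 genes, namely Rgs5, Abcc9, Vtn, Anpep and Acta2, and the 250 bases before the start were searched. The element's reverse complement has the same form, so both strands were covered. No strict match was found in any of the 5. Allowing 1 core base other than A or T gave 2 matches in Acta2, beginning 84 and 34 bases before the RefSeq start, and 0 in the other 4. The RefSeq start is not the outer end of the gene in GENCODE M21 for every gene: 217 of the 250 bases of the Acta2 window, all 250 of Anpep, 41 of Abcc9, 29 of Vtn and 0 of Rgs5 lie inside the annotated gene. Capitals in these lines mark the matches. A strict match occurs in 1.47% of all 32851 windows of this length and a match with 1 other core base in 8.59%. The Acta2 window is chr19:34255374-34255623 on the minus strand and the Rgs5 window is chr1:169655251-169655500 on the plus strand.
Acta2: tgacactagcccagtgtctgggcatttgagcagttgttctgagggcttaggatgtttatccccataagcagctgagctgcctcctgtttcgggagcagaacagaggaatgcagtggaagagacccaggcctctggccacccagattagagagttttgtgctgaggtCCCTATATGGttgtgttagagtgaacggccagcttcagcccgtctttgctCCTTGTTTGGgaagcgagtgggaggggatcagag
Rgs5: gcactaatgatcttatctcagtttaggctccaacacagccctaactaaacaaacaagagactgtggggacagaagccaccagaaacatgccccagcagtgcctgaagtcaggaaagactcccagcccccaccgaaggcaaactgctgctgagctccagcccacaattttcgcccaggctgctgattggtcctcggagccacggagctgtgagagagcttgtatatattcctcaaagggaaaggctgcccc
Such a match describes the letters only and is not evidence that the factor binds there.

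Levels per kilobase of the longest coding transcript set the genes in order. Rgs5 stood at 424 ± 32.8 and Vtn at 413 ± 207 normalised reads per kilobase (mean ± SD over all 6 libraries). Their order differed between libraries: Vtn lay above Rgs5 in positive libraries 1 and 2, at 577 and 756 against 461 and 429.6 per kilobase, and below it in the other 4. Ndufa4l2 followed at 135 ± 19.3, Pdgfrb at 108 ± 17.6, Abcc9 at 76.9 ± 7.25 and Higd1b at 55.7 ± 7.68 per kilobase. Tagln averaged 28.8 ± 19.9, Anpep 22.1 ± 12.1 and Acta2 10.7 ± 11.1 per kilobase over the 6 libraries. Within each of the 6 libraries Acta2 was the lowest of these, and Anpep lay above Tagln only in positive library 2. Myh11 was the lowest, at 0.573 ± 0.479 per kilobase. Reads of some genes could be shared: 0.352% of the 50-base windows of the Acta2 transcript occur in other genes, among them Actg1, and 0.4% of those of Myh11 occur in Myh10 or Myh9. Tagln shares 108 exon bases with Pcsk7 and 1241 with Gm48529, Abcc9 shares 158 with 5330439B14Rik, and Ndufa4l2 shares 32 with Shmt2. All of these lie on the opposite strand, and whether counting used strand is not stated. In the authors' deposited table the log2 value of Pcsk7 was 0.01 ± 0.12.

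For 9 of the 10 genes the positive side had its minimum in library 3, where this held for 50% of 6250 resolved genes with a base mean from 3 to 300. Libraries 1 and 2 of the positive side lay above all 4 others for 4 of the 10, where this held for 20.1% of the same 6250 genes. Pdgfrb, Rgs5, Abcc9 and Vtn have base means above that range. Calls among the mural genes changed when positive library 3 was left out. With limma on log2(normalised reads + 1), a fit chosen after seeing the data, 0 of the 9 members with a base mean of at least 10 were called among 4992 genes. At an unadjusted p under 0.05 limma held 1 of the 9, where 6.41% of the 4992 passed. These 4992 are the resolved genes among 13932 with a base mean of at least 10. Above a base mean of 300 they include only the 39 listed genes, so the adjusted p and shares from limma refer to this partial set. Without positive library 3, Vtn (adjusted p = 0.012), Acta2 (adjusted p = 0.021) and Tagln (adjusted p = 0.026) were called by limma, 3 of 9 where 180 genes or 3.61% were called in all. Anpep missed the threshold there (adjusted p = 0.063), and Rgs5 and Pdgfrb stayed at log2 differences of 0.10 and 0.12. In Vtn, Acta2 and Tagln positive libraries 1 and 2 lay above the 4 others, so leaving out library 3 separates their sides by construction. Those calls therefore add no support. Leaving out any other library called 0 of the 9. Over the 7 fits the adjusted p ran from 0.012 to 0.99 for Vtn, from 0.021 to 0.99 for Acta2, from 0.026 to 0.99 for Tagln and from 0.063 to 0.99 for Anpep.

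**Figure D3:**
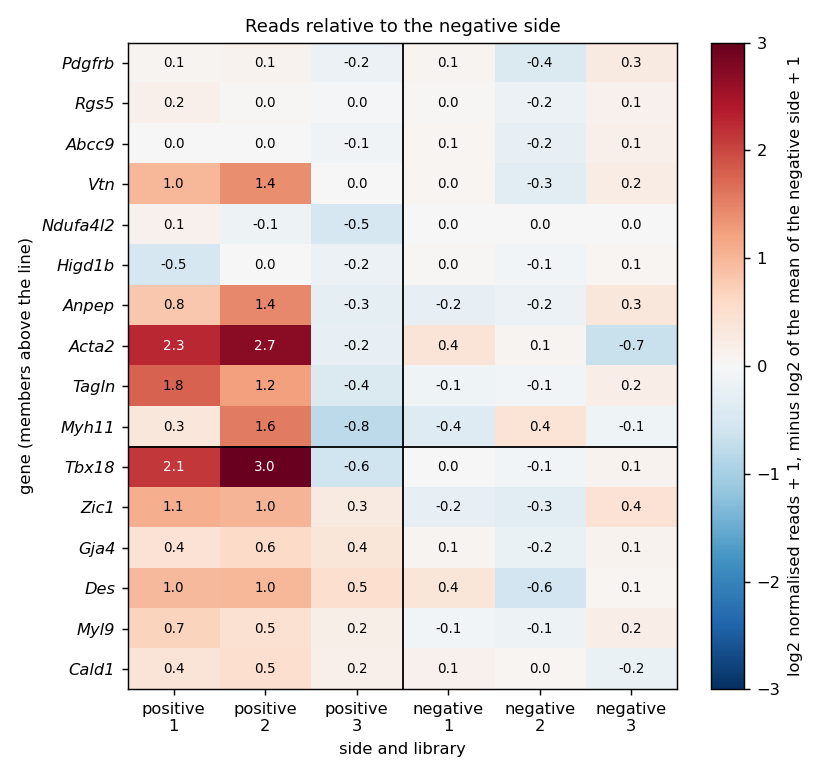
Log2 of normalised reads plus 1, minus log2 of the mean of the negative side plus 1, for the 10 genes (above the line) and 6 further mural or contractile genes, with positive libraries in the left columns. The 6 further genes have the smallest unadjusted p by DESeq2 in their lists, and all lie on the positive side. In the full lists 7 of 16 other mural genes and 4 of 12 contractile genes had a negative log2 fold change. Vtn, Anpep, Acta2, Tagln and Tbx18 are higher in positive libraries 1 and 2, and Pdgfrb, Rgs5 and Abcc9 lie closer to 0.

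Among 16 other mural genes none was called, and 3 of them (Tbx18, Zic1 and Gja4) had an unadjusted p under 0.05, all on the positive side. Of all genes tested 3.96% passed in either direction and 2.77% on the positive side. The median log2 fold change of the 16 was 0.05. Tbx18, a T-box factor of mural cells that mesenchyme of the head expresses as well, had 123, 220.2 and 17.7 normalised reads on the positive side, against 27, 25.9 and 29.4 on the negative side. Positive library 3 was again below the negative libraries. The authors' deposited table gives Tbx18 a log2 value of 2.13 ± 0.63 (unadjusted p = 0.00069, adjusted p = 0.19). Zic1, a zinc finger factor of pericytes and of meninges, had 703, 672 and 401 normalised reads on the positive side, against 280.3, 266 and 449.6 on the negative side. Gja4, a gap junction gene of arteries and mural cells, had 199, 220.2 and 189 normalised reads on the positive side, against 157, 128 and 158 on the negative side. The sides did not overlap for Gja4 or for Des, the muscle intermediate filament gene, which had 38.9, 39.1 and 27.7 normalised reads on the positive side against 25.2, 12.5 and 20 on the negative side. These were 2 of the 16 genes, near the share of 11.2% among resolved genes with a base mean from 3 to 300. Notch3, Mcam and Zic1 have base means above that range. The deposited log2 fold change was 0.84 ± 0.25 for Zic1, 0.46 ± 0.19 for Gja4 and 0.88 ± 0.46 for Des, with adjusted p of 0.19, 0.76 and 1.00 by DESeq2. Notch3, the Notch receptor of mural cells, had 1075, 1179 and 1307 normalised reads on the positive side, against 1461, 1154 and 1255 on the negative side, and so had its highest library on the negative side.

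Of 12 further contractile genes and the factors that drive them none was called, and Cald1 and Myl9 had an unadjusted p under 0.05, both on the positive side. That threshold was passed by 3.96% of all genes in either direction and by 2.77% on the positive side. Cald1, encoding caldesmon, an actin-binding regulator of contraction, had 1118, 1214 and 952 normalised reads on the positive side, against 932, 883 and 745 on the negative side. The deposited log2 fold change of Cald1 was 0.36 ± 0.13 (adjusted p = 0.50), and its sides did not overlap. That held for 1 of the 12 genes, against 11.2% of resolved genes with a base mean from 3 to 300. Cald1 itself, Smtn, Srf and Mrtfa have base means above that range, and Cnn1, Pln and Myocd below it. Myl9, the regulatory myosin light chain of smooth muscle, had 269, 231 and 189 normalised reads on the positive side, against 159, 152 and 194 on the negative side. Its deposited log2 fold change was 0.46 ± 0.20 (adjusted p = 1.00 by DESeq2). Smtn, encoding smoothelin, stood at 0.11 ± 0.11, and Actg2, the enteric smooth muscle actin gene, at 1.55 ± 1.26 with a base mean of 4.17 in the authors' deposited table. The median of the 12 was 0.12.

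Signals that recruit mural cells to vessels showed no call and no gene at an unadjusted p under 0.05 among 12, with a median log2 fold change of 0.13. Pdgfb, the endothelial ligand of the Pdgfrb receptor, had 352, 413 and 348 normalised reads on the positive side, against 346, 315 and 332 on the negative side. The sides did not overlap, and the difference was small beside that of Vtn or Acta2. Such a lack of overlap was seen for 2 of the 11 resolved genes of this list, against 11.2% of resolved genes with a base mean from 3 to 300. Pdgfb itself, Tgfbr1, Tgfbr2, Eng, S1pr1 and Jag1 have base means above that range. The transforming growth factor receptors pointed to opposite sides, with log2 values of 0.43 ± 0.22 for Tgfbr2 and -0.24 ± 0.12 for Tgfbr1 in the authors' deposited table. Tgfb1, their ligand, had 0.35 ± 0.20, and Acvrl1, an endothelial receptor of the same family, had 0.33 ± 0.17 there.

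Set against endothelial genes, the mural genes as a sum differed between the sides by less than the spread between libraries. The 10 members summed to 4517, 4764 and 3434 normalised reads on the positive side, against 3750.5, 3112 and 4086 on the negative side. The 12 endothelial genes summed to 8319, 9091 and 7801 on the positive side, against 7752, 6750.1 and 8159 on the negative side. The mean log2 ratio of members to endothelial genes was higher by 0.06 on the positive side, with an exact permutation p of 0.7 (n = 3 each). Its SD between libraries was 0.16 for the positive side, against 0.06 for the negative side. Its sign turned to -0.0039 without positive library 1. The sum is carried by Rgs5 and Vtn. The smooth muscle genes alone summed to 146, 136 and 28.8 on the positive side, against 38.6, 39.4 and 40 on the negative side. Their log2 ratio to the pericyte genes was -4.90, -5.09 and -6.89 on the positive side, against -6.59, -6.29 and -6.66 on the negative side. The side means differed by 0.89 with an exact permutation p of 0.4 (n = 3 each), in a contrast added after the values were seen. Positive library 3 alone of its side did not lie above the negative libraries. Leaving it out therefore fixes the smallest p that 2 against 3 can give, and that p adds no support. The difference was then 1.52 (exact permutation p = 0.1), while it was 0.52 without positive library 1 and 0.62 without positive library 2 (exact permutation p = 0.7 and 0.6). Cdh5 and Pecam1, adhesion genes of endothelial junctions, had deposited log2 fold changes of 0.35 ± 0.16 and 0.28 ± 0.13, with unadjusted p of 0.028 and 0.03 by DESeq2. Only these 2 of the 12 endothelial genes had an unadjusted p under 0.05, where 3.96% of all genes did, and neither was called. The median log2 fold change of the 12 was 0.20, and 3 of them (Flt1, Emcn and Mfsd2a) had a negative value.

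Set against meningeal genes, the mural genes differed far less between the sides. The log2 ratio of members to the 12 meningeal genes was -0.71, -1.09 and 2.55 in positive libraries 1, 2 and 3, against 2.78, 2.86 and 2.83 in the negative libraries. The difference of the side means was -2.57, with an exact permutation p of 0.1, the smallest that 3 against 3 allows, and it was -2.09, -1.90 and -3.72 without positive libraries 1, 2 and 3 in turn. All 12 meningeal genes had positive library 3 as the lowest of its side and libraries 1 and 2 above the 4 others, the order also seen in Vtn, Anpep, Acta2 and Tagln. Among resolved genes with a base mean from 3 to 300, the first held for 50% and the second for 20.1%. Col1a1, Col1a2 and Col3a1 have base means above that range. The size was unlike: meningeal sums in positive libraries 1 and 2 were 14.3 and 19.6 times the negative mean, those of the smooth muscle genes 3.72 and 3.46 times, and those of the pericyte genes 1.21 and 1.28 times. Without Vtn and Anpep the pericyte sums were 1.07 and 1.03 times that mean. Of the 12 meningeal genes 3 were called in the authors' deposited table: Col1a1 (adjusted p = 0.024), Aldh1a2, a retinoic acid synthesis enzyme (adjusted p = 0.047), and Foxd1, a forkhead factor (adjusted p = 0.047). Of all genes tested 0.136% were called there, and 0.0867% on the positive side. Col1a1, a chain of fibrillar collagen, had 1761, 2192 and 57 reads on the positive side, against 38, 30 and 40 reads on the negative side. Microglial genes, 5 of 6 with a positive value and none called, were also higher in positive libraries 1 and 2 than in library 3, with 2893, 3272 and 1195 summed normalised reads on the positive side, against 1120.5, 1842 and 1717 on the negative side. What part meningeal or microglial RNA has in the values of Vtn, Anpep, Acta2 and Tagln was not tested.

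**Figure D4:**
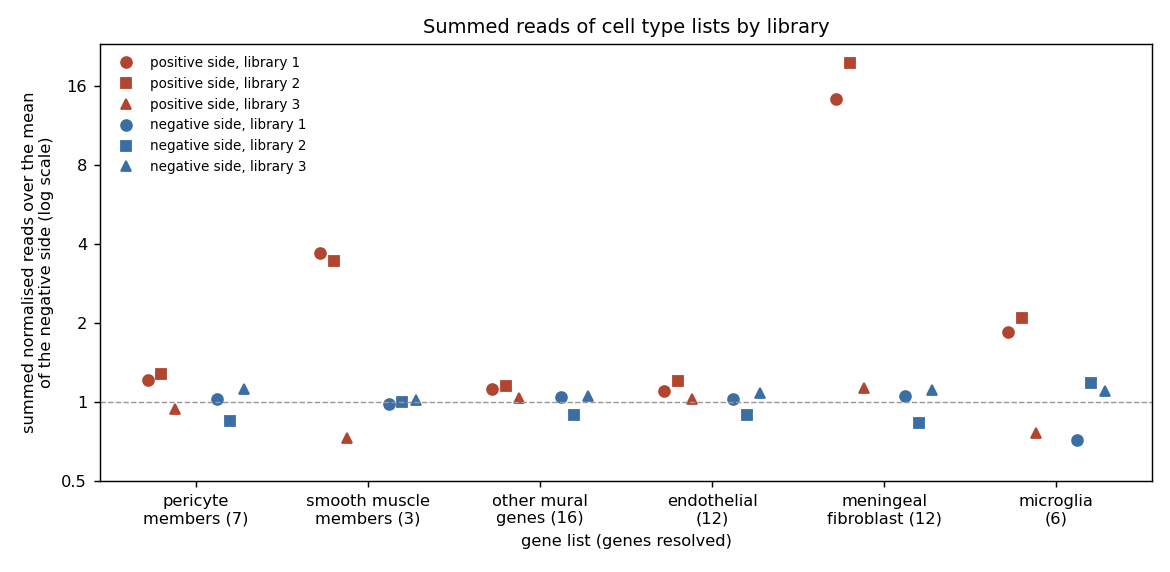
Summed normalised reads of 6 gene lists in each library, divided by the mean of the negative side (log scale), with positive libraries left of negative libraries in each list. Meningeal genes reach 14.3 and 19.6 in positive libraries 1 and 2, smooth muscle genes 3.72 and 3.46, and pericyte genes 1.21 and 1.28, while positive library 3 lies near 1 for the meningeal, pericyte and endothelial lists. Without Vtn and Anpep, a sum not drawn, the pericyte genes reach 1.07 and 1.03 in positive libraries 1 and 2.

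By likeness over the 6 libraries, among 77 other listed genes with resolved reads, the summed members were closest to Cdh5 (Pearson r = 0.967, Spearman rho = 0.94), Pdgfra (r = 0.940, rho = 0.94) and Ednra (r = 0.935, rho = 0.94). These points share the 6 libraries, and the values are a description. Ednra, the endothelin receptor of mural cells, had 203, 206 and 177 normalised reads on the positive side, against 193, 176 and 204 on the negative side. Pdgfra, the platelet-derived growth factor receptor of fibroblasts and glial precursors, had 435, 641 and 159 normalised reads on the positive side, against 282, 199 and 372 on the negative side.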

How the data were processed

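RNA of 3 MPPH (Thr280Ala) and 3 GFP only libraries, grouped by their titles, was extracted with an RNeasy kit per the labels' protocols. Per the submitters' processing notes, cutadapt, featureCounts and DESeq2 were run with mm10, with no version. Aligner, gene annotation and strandedness: not given in the sources used here. The deposited table is the authors' DESeq2 comparison: per the file headers it holds the base mean (a signal, normalised counts averaged over libraries), the log2 fold change and its standard error, the Wald score, and the p-value with its adjusted p-value. Genes were called at an adjusted p under 0.05. The members and lists were chosen with earlier results of these data known. All members are named, and from the other mural, contractile, recruitment and meningeal lists the called genes or else up to 4 with the smallest p. The remaining lists are given by sums and a few of their genes. Notch3, Pdgfb and Ednra are named besides by likeness or after their values were seen.

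Whole reads were recovered from the 15 digits of each base mean. The 739 genes of 1 read give what a read is worth in each library. Sets of 6 whole numbers were then searched that give the mean, and the estimation of the authors' DESeq2 run was repeated on each set in numpy with the negative side as base level. A set was kept when it alone gave the deposited standard error and the log2 fold change within 1e-11, and the largest difference kept was 1.1e-14. Below a base mean of 8 the mean alone decided. Of 9471 genes with a mean under 300, 9466 were resolved, and 39 of 39 listed genes above that. On simulated data the search returned the true reads of 200 of 200 genes and 0 wrong ones, and it returned 0 once the means were shifted. Single values were tested by two-sided exact permutation over libraries. limma 3.58.1 in R 4.3.3 was tested on simulated data, and Python 3.11.15, numpy 2.4.6 and scipy 1.17.1 were used. Positions are from GENCODE M21 and promoters from RefSeq (GRCm38.p6). Alternatives changed thresholds, the genes adjusted over, centring, weighting, the pseudocount and the libraries used.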

Additional observations from a re-analysis of the deposited data

How the results depend on the processing

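The count of members called was 0 with the authors' adjusted p under 0.05 or 0.1, and with p adjusted over genes with a base mean of at least 10 or 50, and 4 with the unadjusted p under 0.05. With limma on recovered reads it was 0, and over the fits that leave out 1 library each it ran from 0 to 3. The 3 were Vtn, Acta2 and Tagln without positive library 3, a removal that separates their sides by construction. The median log2 fold change of the members was 0.45, their mean weighted by inverse squared standard error was 0.08, and the median was 0.03 over members with a base mean of at least 50, which leaves out Acta2, Tagln, Myh11 and Higd1b. Centring moved no median by more than 0.01. The difference of members against endothelial genes ran from -0.0039 to 0.15 with 1 library left out, and turned round without positive library 1. Of 80 values of single members under alternatives, 79 lay within 1 standard error of the deposited fold change. Anpep without positive library 2 was the other, at a log2 ratio of 0.36. The standard errors already hold the spread between libraries, so this count says little about stability. Myh11, with a standard error of 1.23, went from 0.87 to -0.17 without positive library 2 and still lay within it. The cause of these shifts beyond the libraries and genes left out was not tested. No paired analysis was possible because the recovered libraries carry no replicate number. With 3 libraries a side, exact permutation cannot go below 0.10, and Myh11, with 1 to 10 reads a library, is limited by depth.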

Other observations

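Genes of skeletal and cardiac muscle were low in every library, with sums over 6 genes of 72.3, 72.4 and 52 normalised reads on the positive side, against 45.8, 29.8 and 53 on the negative side. Des, which that list shares with the mural list, made up a large part of these sums. Cnn1, the calponin gene of mature smooth muscle, had 1 read on each side in all 6 libraries together. Foxs1, a forkhead factor of pericytes, had 59.7, 55.8 and 37.6 normalised reads on the positive side, against 45.8, 36.5 and 40 on the negative side, and Kcnj8, which encodes the pore subunit that pairs with the Abcc9 product, had 268, 199.6 and 222 on the positive side, against 225, 165 and 273 on the negative side. These genes were picked after their values were seen.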
